A study of Mus musculus with 10 samples.

Results

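The collagen genes were followed in livers of mice that lacked NDRG3 in hepatocytes and in livers of wild-type mice. Members were all genes whose symbol has the form of a collagen chain (Col, a type number, the letter a and a chain number), which gave 44 of the 24052 gene symbols listed. RNA was sequenced from 10 livers of C57BL/6 mice fed ad libitum, with 5 wild-type and 5 Ndrg3 LKO livers and 1 library per liver. The study's own RNA and metabolome figures give 5 wild-type but 4 Ndrg3 LKO livers, and their legends do not say which was left out. All 10 are used here. In Ndrg3 LKO mice, exon 4 of *Ndrg3* was flanked by loxP sites and deleted by Cre recombinase under the albumin promoter, which is active in hepatocytes, so that stellate, endothelial and other cells of the liver should keep the gene. The line had been backcrossed to C57BL/6N, and the controls were wild-type littermates. The study's methods give an age of 8 to 10 weeks for these livers and a legend 10 to 12 weeks, and male mice were used where the study does not say otherwise. Nothing in the labels says whether replicates came from separate litters.

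Collagens are secreted or membrane-bound matrix proteins whose chains wind into a common helix. Fibrillar collagens form the load-bearing fibres of connective tissue, type IV collagen forms the network of basement membranes, type VI forms beaded filaments, and fibril-associated collagens decorate the surface of fibres. In the liver, stellate cells and portal fibroblasts are the known main source of types I and III, which accumulate in scar tissue, whereas hepatocytes and endothelial cells are known sources of type XVIII, a basement membrane collagen whose end fragment is endostatin.

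The libraries held between 20872262 and 24747870 counts in wild-type and between 23474693 and 30450057 in Ndrg3 LKO livers. *Ndrg3* itself lay between 15.95 and 21.9 CPM (counts scaled to 1000000 per library, with TMM-adjusted library sizes) in wild-type and between 7.08 and 9.18 in Ndrg3 LKO livers (log2 fold change −1.20 ± 0.13 SE, edgeR adjusted p = 3.87e-05), a count over the whole gene that cannot show the deleted exon alone. Ndrg3 LKO replicate 5 stood apart: on the first principal component (68.7% of the variance) it lay at 14.1, against 51.1 to 56.6 for the other Ndrg3 LKO livers and −49.9 to −43.1 for wild-type livers. Values without it are given for the members it moved most. Over all genes tested, the median log2 fold change was 0.03, and 0.56 under library-size scaling, so directions below are relative to TMM scaling. Signs of the 20 collagen genes tested did not depend on this choice, with 17 values above 0 and 3 below under TMM, library-size and upper-quartile scaling.

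Of the 44 collagen genes, 20 passed the filter of at least 1 CPM (here per unadjusted library total) in at least 5 livers and were tested with edgeR. At an adjusted p under 0.05, 15 of these were called, beside 48.6% of all genes tested. Higher levels in Ndrg3 LKO livers were called for 12 (beside 25.6% of all genes) and lower levels for 3 (beside 23.0%). Under library-size scaling 17 were called higher, *Col14a1* and *Col16a1* among them (adjusted p = 0.00366 and 0.00285), and by DESeq2 15, with 3 lower in both. The genes that rose belonged to types I, III, V, VI, IV, XII, XIII and XX, and those that fell were *Col27a1*, *Col5a3* and *Col18a1*. Of the 12 that rose, 6 were under 1 CPM in at least 1 wild-type liver and so passed the filter through the Ndrg3 LKO livers, which fixes their direction in part. Among the 12 collagen genes at or above 1 CPM in all 5 wild-type livers, 6 were higher, 3 lower and 3 not called. The median log2 fold change of the 20 tested was 1.09, and that of all genes 0.03. Without Ndrg3 LKO replicate 5, 22 collagen genes passed the filter and 18 were called, 15 of them higher (55.6% of all genes were called in that fit).

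The 250 bases before the annotated start of the 3 genes that fell, and of 2 that rose, *Col3a1* and *Col1a2*, are shown because these members carry the opposite directions described below. The sequences are from RefSeq on GRCm38.p6, a later build than the mm9 of the counts, and each is written 5′ to 3′ on the strand of its gene. *Col18a1* has 2 annotated starts. Capitals mark matches on either strand to the TATA box (searched as TATAAA), to the CCAAT box as spelled, or to the GC box (searched as GGGCGG), which do not overlap one another here.
*Col27a1*, chr4:63215162-63215411, plus strand: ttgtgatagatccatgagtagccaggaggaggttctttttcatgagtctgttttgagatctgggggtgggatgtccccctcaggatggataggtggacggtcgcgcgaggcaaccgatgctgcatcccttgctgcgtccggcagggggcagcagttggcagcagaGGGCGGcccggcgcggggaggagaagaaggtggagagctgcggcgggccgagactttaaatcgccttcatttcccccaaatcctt
*Col5a3*, chr9:20815068-20815317, minus strand: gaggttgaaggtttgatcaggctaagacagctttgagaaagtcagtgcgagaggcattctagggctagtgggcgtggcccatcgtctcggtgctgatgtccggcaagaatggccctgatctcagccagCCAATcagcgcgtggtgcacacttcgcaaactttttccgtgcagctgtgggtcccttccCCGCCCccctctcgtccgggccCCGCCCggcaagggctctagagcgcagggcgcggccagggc
*Col18a1*, outer start, chr10:77166531-77166780, minus strand: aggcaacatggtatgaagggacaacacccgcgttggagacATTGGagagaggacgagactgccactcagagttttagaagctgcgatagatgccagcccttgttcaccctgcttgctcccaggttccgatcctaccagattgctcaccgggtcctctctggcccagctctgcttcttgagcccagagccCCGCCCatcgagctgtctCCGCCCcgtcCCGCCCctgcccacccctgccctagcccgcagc
*Col18a1*, inner start, chr10:77113706-77113955, minus strand: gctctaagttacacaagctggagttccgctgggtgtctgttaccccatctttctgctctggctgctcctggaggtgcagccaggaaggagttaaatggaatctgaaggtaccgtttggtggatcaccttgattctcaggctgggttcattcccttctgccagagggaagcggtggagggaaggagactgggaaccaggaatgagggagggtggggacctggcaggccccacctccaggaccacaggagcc
*Col3a1*, chr1:45311288-45311537, plus strand: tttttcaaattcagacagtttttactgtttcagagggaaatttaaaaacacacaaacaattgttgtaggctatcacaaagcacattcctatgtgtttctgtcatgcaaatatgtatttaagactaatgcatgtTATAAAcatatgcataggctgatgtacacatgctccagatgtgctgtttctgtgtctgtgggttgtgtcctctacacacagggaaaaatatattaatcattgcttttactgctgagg
*Col1a2*, chr6:4505368-4505617, plus strand: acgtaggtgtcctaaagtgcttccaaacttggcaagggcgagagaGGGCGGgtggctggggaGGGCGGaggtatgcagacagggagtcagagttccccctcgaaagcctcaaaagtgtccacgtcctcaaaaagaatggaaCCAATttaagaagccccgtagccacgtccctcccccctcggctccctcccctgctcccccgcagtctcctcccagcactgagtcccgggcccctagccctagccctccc

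The windows of the genes that fell hold 1 GC box in *Col27a1*, 1 CCAAT box and 2 GC boxes in *Col5a3*, and 1 CCAAT box and 3 GC boxes at the outer start of *Col18a1*, where the inner start has none of the letters searched. The window of *Col3a1* has 1 TATAAA, 117 bases before the start, and that of *Col1a2* has 1 CCAAT box and 2 GC boxes. Among 32851 windows of 250 bases, 12.4% held TATAAA, 33.8% CCAAT and 32.7% GGGCGG. Of the 16 tested collagen genes with a window, 2 held TATAAA, 7 CCAAT and 9 GGGCGG in at least 1 window, and CCAAT and GGGCGG occurred among genes of both directions. A further string, CAAAGTCCA, which HNF4A is known to bind, was in 0.384% of windows and in 0 of the 16 collagen genes. *Col1a1*, *Col5a2*, *Col12a1* and *Col14a1* had no window in the table.

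*Col27a1* encodes a fibrillar collagen best known from cartilage, and it had the largest difference of the 20 collagen genes tested. Its mm9 position is chromosome 4, plus strand, 62875038 to 62996025. Wild-type livers held 79.4, 27.6, 23.6, 94.0 and 23.3 CPM and Ndrg3 LKO livers 1.21, 0.75, 1.39, 0.88 and 1.27 CPM, in the order of replicates 1 to 5. The groups did not overlap, and every Ndrg3 LKO liver, replicate 5 included, was far under the lowest wild-type liver. The mean fell from 49.6 ± 34.3 to 1.10 ± 0.27 CPM (SD, n = 5 each), a log2 fold change of −5.50 ± 0.49 (SE, edgeR adjusted p = 1.3e-05).

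*Col5a3* encodes the third chain of type V collagen, which joins the chains *Col5a1* and *Col5a2* in some tissues. Its mm9 position is chromosome 9, minus strand, 20574494 to 20619511. Wild-type livers held 25.9, 12.2, 8.92, 36.4 and 11.98 CPM and Ndrg3 LKO livers 5.56, 4.27, 3.07, 3.37 and 5.90 CPM. Again the groups did not overlap, and the wild-type livers spread more widely than the Ndrg3 LKO livers. The log2 fold change was −2.11 ± 0.38 (SE, edgeR adjusted p = 0.000997).

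*Col18a1* was the most abundant collagen transcript, per transcript length, in both groups. Its mm9 position is chromosome 10, minus strand, 76514923 to 76629293, where it overlaps *Slc19a1* on the opposite strand, and the strand setting of the counting is not given in the sources used here. Wild-type livers held 982, 750, 617, 917 and 701 CPM and Ndrg3 LKO livers 254, 314, 324, 248 and 385 CPM. Each Ndrg3 LKO liver was below each wild-type liver, with replicate 5 the highest of its group. The mean fell from 793 ± 152 to 305 ± 56.2 CPM (SD, n = 5 each; log2 fold change −1.38 ± 0.18 SE, edgeR adjusted p = 0.000154).

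The 3 genes that fell were also the 3 collagen genes, of the 20 tested, whose Ndrg3 LKO livers all lay below the wild-type livers, as was so for 15.9% of all genes tested. Wild-type replicates 1 and 4 were the 2 highest wild-type livers for each of the 3, a pattern seen in 24.1% of the 11208 genes tested. Without Ndrg3 LKO replicate 5 the log2 fold changes were −5.56 for *Col27a1*, −2.24 for *Col5a3* and −1.49 for *Col18a1*. All 3 calls held in each of 17 alternative fits.

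**Figure D1:**
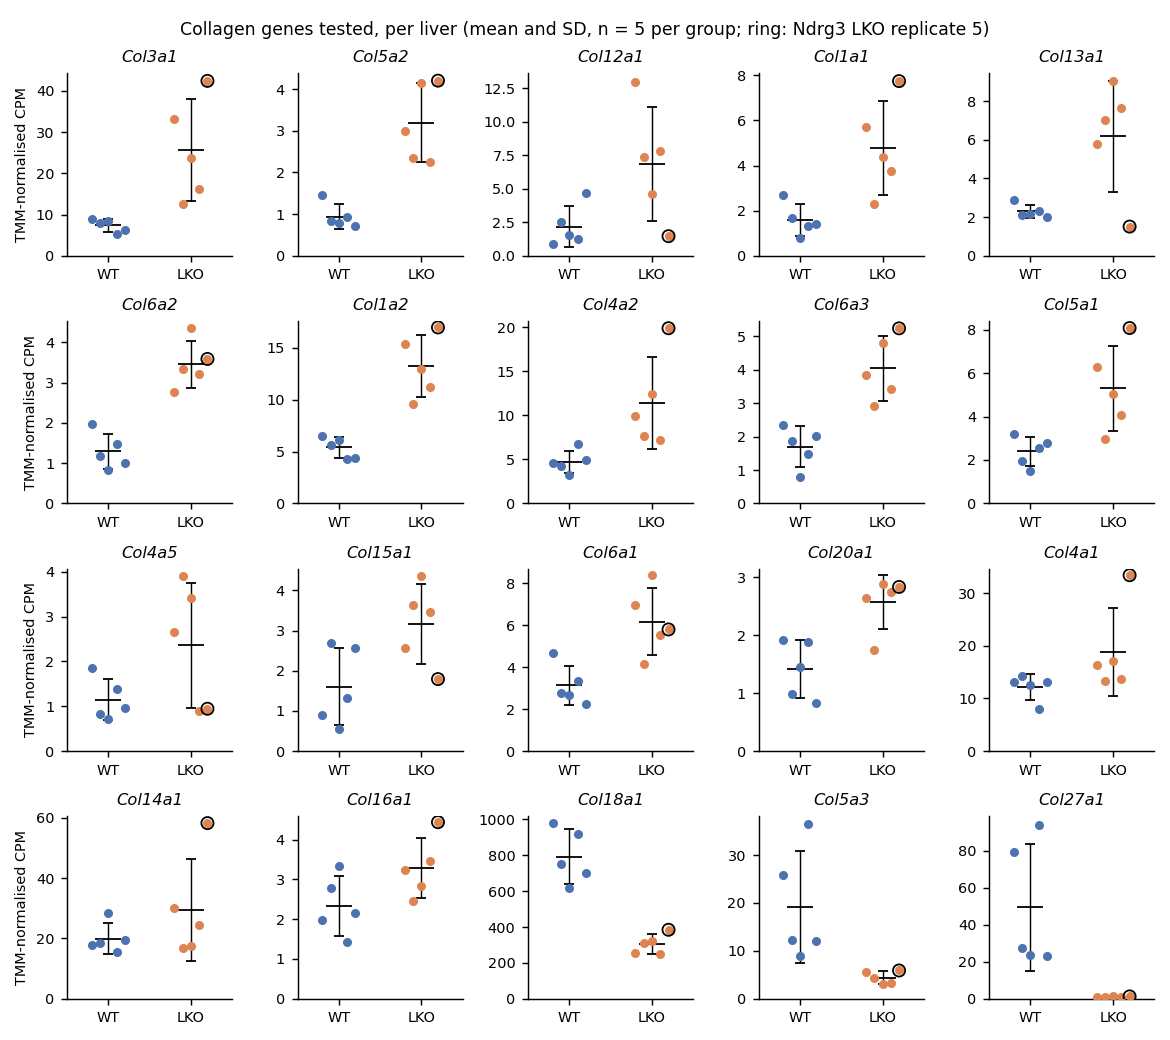
TMM-normalised CPM (y axis, from 0) of the 20 collagen genes tested in the 5 wild-type (WT) and 5 Ndrg3 LKO (LKO) livers. Points are livers, bars the mean and SD, and rings Ndrg3 LKO replicate 5. Groups separate downwards for *Col18a1*, *Col5a3* and *Col27a1*, and the ringed liver is the highest of its group for *Col3a1*, *Col1a1* and *Col4a1* but the lowest for *Col12a1*, *Col13a1* and *Col15a1*.

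The interstitial fibrillar collagens rose together: *Col3a1*, *Col1a1*, *Col1a2*, *Col5a1* and *Col5a2* were all called higher. With *Col27a1* and *Col5a3*, which fell, they were the 7 of 11 fibrillar members that could be tested. *Col3a1* encodes the chain of type III collagen, which makes reticular fibres. Wild-type livers held 8.99, 7.97, 8.42, 5.29 and 6.26 CPM and Ndrg3 LKO livers 33.3, 12.5, 23.7, 16.1 and 42.4 CPM. The groups did not overlap, and the Ndrg3 LKO livers differed among themselves by more than the wild-type livers. Its log2 fold change was 1.79 ± 0.31 (SE, edgeR adjusted p = 0.000813), and 1.52 without Ndrg3 LKO replicate 5, its highest liver.

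*Col1a1* and *Col1a2* encode the chains of type I collagen, the main protein of scar tissue. *Col1a2* held 6.52, 5.63, 6.14, 4.33 and 4.41 CPM in wild-type and 15.4, 9.59, 12.9, 11.2 and 17.0 CPM in Ndrg3 LKO livers. No Ndrg3 LKO liver reached down to the wild-type range (log2 fold change 1.29 ± 0.19 SE, edgeR adjusted p = 0.000303). *Col1a1*, which overlaps the annotated gene *Gm17329* on the opposite strand, ranged from 0.78 to 2.698 CPM in wild-type and from 2.28 to 7.74 CPM in Ndrg3 LKO livers. Here the groups overlapped, through wild-type replicate 1 and Ndrg3 LKO replicate 2 (log2 fold change 1.59 ± 0.37 SE, edgeR adjusted p = 0.00412). Without Ndrg3 LKO replicate 5, the highest liver for both, the log2 fold changes were 1.34 for *Col1a1* and 1.17 for *Col1a2*.

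*Col5a1* and *Col5a2* encode the chains of type V collagen, which nucleates type I fibres. *Col5a2* held 1.46, 0.83, 0.78, 0.92 and 0.72 CPM in wild-type and 2.99, 2.35, 4.15, 2.26 and 4.20 CPM in Ndrg3 LKO livers, without overlap, and reached 1 CPM in only 1 wild-type liver. Its log2 fold change was 1.75 ± 0.28 (SE, edgeR adjusted p = 0.000431). *Col5a1* ranged from 1.51 to 3.20 CPM and from 2.98 to 8.07 CPM, overlapping between the groups (log2 fold change 1.14 ± 0.29 SE, edgeR adjusted p = 0.00724). Leaving out Ndrg3 LKO replicate 5 gave *Col5a1* a log2 fold change of 0.93. Type V genes thus moved in both directions, with *Col5a1* and *Col5a2* higher and *Col5a3* lower. Summed over *Col1a1*, *Col1a2*, *Col3a1*, *Col5a1* and *Col5a2*, wild-type livers held 14.4 to 22.9 CPM and Ndrg3 LKO livers 29.7 to 79.4 CPM, or at most 63.6 CPM without replicate 5. This sum is a description only. It leaves out the fibrillar genes that fell, *Col27a1* and *Col5a3*, so that its direction follows from which genes were summed.

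All 3 tested chains of type VI collagen, which forms beaded filaments around cells, were higher in Ndrg3 LKO livers. *Col6a2* held 1.97, 1.17, 0.84, 1.47 and 1.01 CPM in wild-type and 2.76, 3.35, 4.36, 3.23 and 3.59 CPM in Ndrg3 LKO livers. *Col6a3* held 2.36, 1.86, 0.78, 1.47 and 2.03 CPM in wild-type and 3.83, 2.91, 4.80, 3.43 and 5.24 CPM in Ndrg3 LKO livers. Neither gene overlapped between the groups, and both were near the filter in wild-type livers. Their log2 fold changes were 1.41 ± 0.25 and 1.25 ± 0.28 (SE, edgeR adjusted p = 0.000795 and 0.00370). *Col6a1* ranged from 2.27 to 4.67 CPM and from 4.18 to 8.40 CPM, with a log2 fold change of 0.97 ± 0.24 (SE, edgeR adjusted p = 0.00618).

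Type IV collagen, the network collagen of basement membranes, was split by the test. *Col4a2* held 4.55, 4.26, 3.24, 6.72 and 4.89 CPM in wild-type and 9.90, 7.65, 12.4, 7.16 and 19.9 CPM in Ndrg3 LKO livers, without overlap (log2 fold change 1.26 ± 0.29 SE, edgeR adjusted p = 0.00425). *Col4a1*, its partner chain, held 13.04, 14.3, 12.6, 8.01 and 13.1 CPM in wild-type and 16.3, 13.4, 17.1, 13.8 and 33.4 CPM in Ndrg3 LKO livers. Only Ndrg3 LKO replicate 5 stood well above the wild-type range, and *Col4a1* was not called (log2 fold change 0.62 ± 0.26 SE, edgeR adjusted p = 0.0639). Without that liver its log2 fold change was 0.30, and that of *Col4a2* 0.96. The starts of both genes are 21 bases apart on opposite strands of chromosome 8 and the annotated genes overlap there, so that a few reads could be counted for either. *Col4a5*, known from the basement membrane of the kidney glomerulus, ranged from 0.73 to 1.86 CPM and from 0.88 to 3.91 CPM and was not called (log2 fold change 1.05 ± 0.45 SE, edgeR adjusted p = 0.0696).

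The fibril-associated and transmembrane members that were called were *Col12a1*, *Col20a1* and *Col13a1*. *Col13a1*, a transmembrane collagen of cell adhesion sites, ranged from 2.03 to 2.87 CPM in wild-type livers, and Ndrg3 LKO replicates 1 to 4 held 5.76, 7.02, 9.05 and 7.62 CPM. Ndrg3 LKO replicate 5, at 1.51 CPM, was below every wild-type liver. The log2 fold change was 1.44 ± 0.37 with that liver and 1.67 without it (SE, edgeR adjusted p = 0.00703 and 2.1e-05). *Col12a1*, which coats type I fibres, ranged from 0.84 to 4.71 CPM in wild-type and from 1.46 to 12.99 CPM in Ndrg3 LKO livers, again with replicate 5 the lowest. Its log2 fold change was 1.66 ± 0.55 (SE, edgeR adjusted p = 0.0244), and 1.905 without Ndrg3 LKO replicate 5. *Col12a1* kept its call in 12 of 17 alternative fits, with adjusted p from 0.00316 to 0.0877. Of the 5 fits that lost it, 4 left out 1 liver: wild-type replicate 1, 3 or 4 (log2 fold change 1.44, 1.55 and 1.497, adjusted p = 0.0587, 0.0589 and 0.0588) or Ndrg3 LKO replicate 1 (1.30, adjusted p = 0.0709). *Col20a1*, a fibril-associated collagen, ranged from 0.83 to 1.91 CPM and from 1.75 to 2.89 CPM (log2 fold change 0.86 ± 0.27 SE, edgeR adjusted p = 0.0190), and was called in 15 of 16 alternative fits, the exception being the one without wild-type replicate 2 (adjusted p = 0.0564, range 0.00134 to 0.0564).

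Of the other members tested, *Col14a1*, a fibril-associated collagen, held 17.7, 18.4, 28.5, 15.4 and 19.4 CPM in wild-type and 30.0, 16.8, 17.5, 24.6 and 58.2 CPM in Ndrg3 LKO livers. Apart from Ndrg3 LKO replicate 5, the groups overlapped almost fully, and the gene was not called (log2 fold change 0.56 ± 0.32 SE, edgeR adjusted p = 0.163; 0.15 without that liver). *Col16a1* ranged from 1.43 to 3.35 CPM and from 2.45 to 4.44 CPM (log2 fold change 0.49 ± 0.25 SE, edgeR adjusted p = 0.129). *Col15a1*, the relative of *Col18a1*, ranged from 0.56 to 2.69 CPM and from 1.79 to 4.36 CPM (log2 fold change 0.98 ± 0.40 SE, edgeR adjusted p = 0.0588). *Col4a1*, *Col15a1* and *Col4a5* were near the threshold, being called in 5 of 17, 7 of 16 and 4 of 16 alternative fits. Leaving out 1 liver brought the call for *Col4a1* without Ndrg3 LKO replicate 2, for *Col15a1* without wild-type replicate 2 or 5 or Ndrg3 LKO replicate 5, and for *Col4a5* without Ndrg3 LKO replicate 4 or 5.

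**Figure D2:**
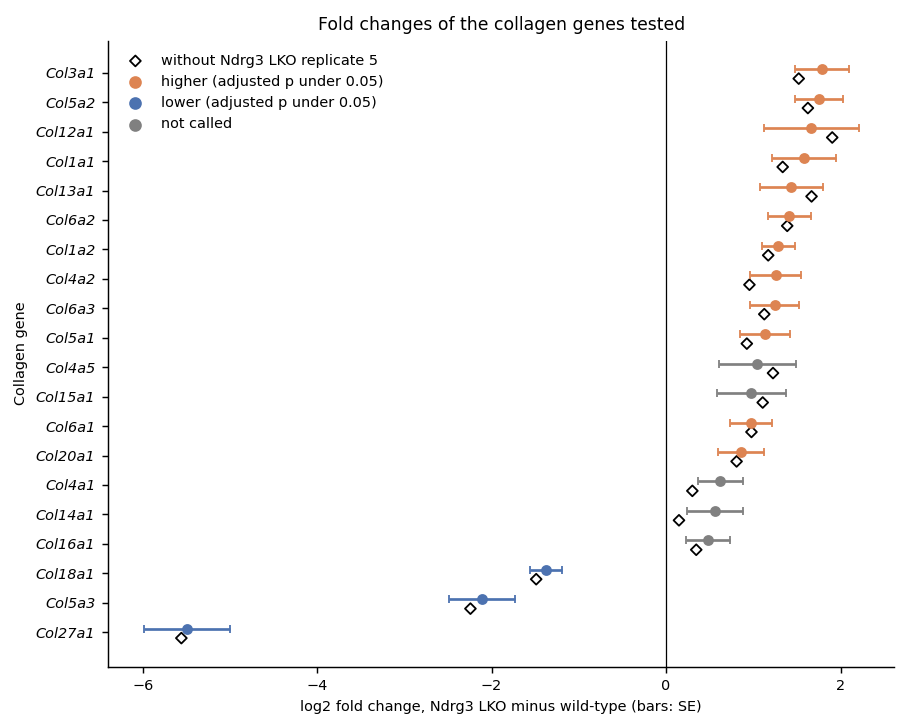
Log2 fold change of Ndrg3 LKO minus wild-type livers (x axis, bars SE, n = 5 per group) for the 20 collagen genes tested. Orange points were called higher, blue points lower and grey points not called, and open diamonds leave out Ndrg3 LKO replicate 5. Values run from −5.50 for *Col27a1* to 1.79 for *Col3a1*, and no diamond changes side.

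Of the 20 collagen genes tested, 6 had every Ndrg3 LKO liver above every wild-type liver (*Col3a1*, *Col5a2*, *Col1a2*, *Col4a2*, *Col6a2* and *Col6a3*), beside 15.6% of all genes tested. *Col5a2*, *Col6a2* and *Col6a3* passed the filter through the Ndrg3 LKO livers. Ndrg3 LKO replicate 5 was the highest liver of its group for 12 of the 20 collagen genes tested and the lowest for 3, where over all genes tested it was the highest for 31.8% and the lowest for 30.3%. It was highest for types I, III, IV (*Col4a1* and *Col4a2*) and V and for *Col6a3*, *Col14a1*, *Col16a1*, *Col18a1* and *Col5a3*. The 3 genes for which it was lowest were *Col12a1*, *Col13a1* and *Col15a1*.

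**Figure D3:**
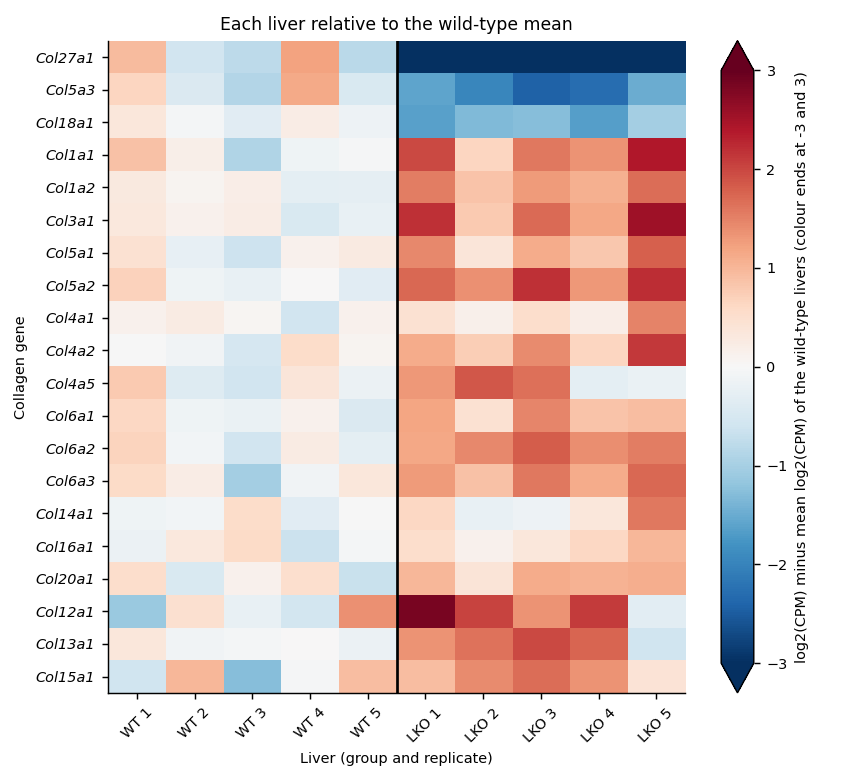
Each of the 10 livers (columns) for the 20 collagen genes tested (rows), coloured by log2 CPM minus the mean log2 CPM of the wild-type livers. Colour ends at −3 and 3, which cuts *Col27a1*. Fibrillar, type IV and type VI genes are darkest red in Ndrg3 LKO replicate 5 for *Col1a1*, *Col3a1* and *Col4a2*, while the same liver is pale or blue for *Col12a1* and *Col13a1*.

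*Col18a1* held most collagen counts, and the summed collagen level was lower in Ndrg3 LKO livers although most tested members rose. All 44 genes together gave 730 to 1170 CPM in wild-type and 379 to 617 CPM in Ndrg3 LKO livers. *Col18a1* took 82.5% to 86.5% of collagen counts in wild-type and 58.7% to 73.2% in Ndrg3 LKO livers. Without *Col18a1*, *Col27a1* and *Col5a3*, the remaining 41 genes summed to 64.5 to 82.9 CPM in wild-type and to 110 to 225 CPM in Ndrg3 LKO livers, and to at most 172 CPM without replicate 5. Both sums were separate between the groups. This is a description of the members, since the direction of the second sum follows from which genes were removed.

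**Figure D4:**
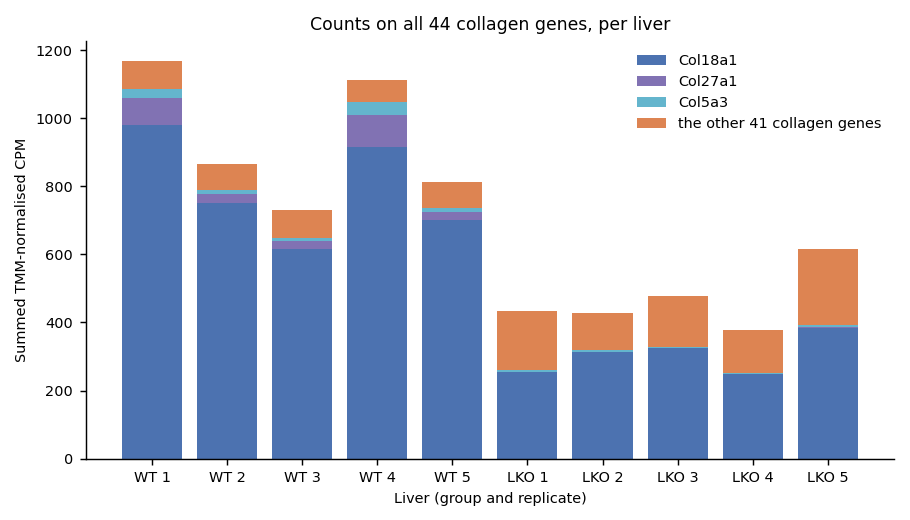
Summed TMM-normalised CPM of the 44 collagen genes (y axis, from 0) in each liver (x axis), split into *Col18a1*, *Col27a1*, *Col5a3* and the other 41 genes. Wild-type bars reach 730 to 1170 CPM and Ndrg3 LKO bars 379 to 617 CPM, and the share of the other 41 genes is larger in Ndrg3 LKO livers.

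Levels of different genes were compared per kilobase of the longest coding transcript. On this scale *Col18a1* held 125 CPM per kb in wild-type livers, followed by *Col27a1* at 6.51, *Col5a3* at 3.12, *Col14a1* at 3.08, *Col4a1* at 1.84, *Col3a1* at 1.33 and *Col1a2* at 1.01. In Ndrg3 LKO livers the order was *Col18a1* at 48.1, *Col3a1* at 4.60, *Col14a1* at 4.56, *Col4a1* at 2.84 and *Col1a2* at 2.47 CPM per kb. *Col27a1*, second by mean in wild-type livers, had 0.14 CPM per kb in Ndrg3 LKO livers, the lowest of the 20 genes tested. Its second place did not hold in each wild-type liver: in replicate 3 it held 23.59 CPM, under the 28.55 CPM of *Col14a1*, whose transcript is shorter. In wild-type livers *Col5a3* and *Col14a1* were closer than their spread between livers, as were *Col3a1* and *Col14a1* in Ndrg3 LKO livers.

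Chains that share a molecule or a subfamily were compared by the ratio of their counts within a liver, which does not depend on library scaling. Of 6 ratios, only *Col15a1* to *Col18a1* differed between the groups after adjustment over the 6: its log2 value was −9.14 ± 0.99 in wild-type and −6.63 ± 0.64 in Ndrg3 LKO livers (SD, n = 5 each), a difference of 2.51 without overlap (2-sided exact permutation p = 0.00794, the smallest that splits of 5 against 5 livers allow, adjusted p = 0.0476). Without wild-type replicate 1 the difference was 2.28 and the adjusted p of the exact permutation test 0.0952. The groups still did not overlap there, but the ratio did not keep its call at 0.05 without that liver. For type V, the libraries held 1.93 to 3.92 *Col5a1* counts per *Col5a2* count in wild-type and 1.22 to 2.10 in Ndrg3 LKO livers (exact permutation p = 0.0238, adjusted p = 0.0714). For type VI, there were 2.24 to 3.20 and 1.25 to 2.52 *Col6a1* counts per *Col6a2* count (exact permutation p = 0.0397, adjusted p = 0.0794). For type IV, there were 1.19 to 3.88 and 1.38 to 1.92 *Col4a1* counts per *Col4a2* count (exact permutation p = 0.0635, adjusted p = 0.0952). In these pairs the log2 difference was −0.63, −0.47 and −0.64, with overlap between the groups. The ratio of *Col1a1* to *Col1a2* differed by 0.29 on the log2 scale (exact permutation p = 0.468, adjusted p = 0.562) and that of *Col3a1* to *Col1a1* by 0.11 (exact permutation p = 0.802, adjusted p = 0.802).

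The 24 collagen genes under the filter held few counts. *Col22a1*, known from the junction of muscle and tendon, had 1, 1, 0, 0 and 3 counts in wild-type and 25, 41, 45, 15 and 9 counts in Ndrg3 LKO livers, with no overlap between the groups. It was the only gene of the 24 whose groups did not overlap in CPM. *Col7a1*, the collagen of anchoring fibrils in skin, had 15, 16, 9, 23 and 6 counts in wild-type and 92, 61, 65, 81 and 22 counts in Ndrg3 LKO livers, with replicate 5 again the lowest of its group. In the edgeR fit without a filter these were the 2 of 23 that were called (adjusted p = 0.000947 and 0.00943), beside 35.0% of all genes in that fit. *Col11a2* had 6 to 21 and 15 to 70 counts, *Col4a3* 7 to 21 and 16 to 33, and *Col8a1* 1 to 5 and 8 to 26. These counts are not scaled to library size. In the fit without a filter the log2 fold changes of *Col11a2*, *Col4a3* and *Col8a1* were 0.56, 0.15 and 1.33. They were not called (edgeR adjusted p = 0.2566, 0.7485 and 0.1387).

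*Col19a1* had 0 counts in every liver. Of the remaining 18, *Col2a1*, *Col4a4*, *Col4a6*, *Col6a4*, *Col6a5*, *Col6a6*, *Col8a2*, *Col9a1*, *Col9a2*, *Col9a3*, *Col10a1*, *Col11a1*, *Col17a1*, *Col23a1*, *Col24a1*, *Col25a1*, *Col26a1* and *Col28a1*, none had more than 13 counts in a liver. A count of 0 allows up to 3 counts, between 0.0985 and 0.144 CPM in these libraries, and covers counting error only.

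Genes that make, process, bind, sense and degrade collagen were examined as 5 lists. Their counts, and those of the cell type markers below, stand beside 25.6% of all genes called higher and 23.0% called lower, 48.6% in all. List genes under 1 CPM in some wild-type livers passed the filter through the Ndrg3 LKO livers, which fixes their direction in part. Of 20 genes of folding and modification, 14 were tested, of which 4 were higher, 3 lower and 7 not called (median log2 fold change −0.21, against 0.03 over all genes), a share of calls near that of all genes. Of the 4 that were higher, 2 passed the filter through the Ndrg3 LKO livers. *Serpinh1*, the chaperone HSP47 that is specific to procollagen, rose from 6.59 ± 1.42 to 19.1 ± 4.77 CPM (SD, n = 5 each; log2 fold change 1.54 ± 0.20 SE, edgeR adjusted p = 0.000142), without overlap. *Mia3*, which loads procollagen into carriers at the endoplasmic reticulum, fell (log2 fold change −1.53 ± 0.23 SE, edgeR adjusted p = 0.000358), as did the lysyl hydroxylase *Plod1* (−0.56 ± 0.14 SE, edgeR adjusted p = 0.00584). The prolyl hydroxylase genes *P4ha1* and *P4ha2* had log2 fold changes of −0.14 ± 0.25 and −0.48 ± 0.19 (SE) and were not called (edgeR adjusted p = 0.670 and 0.0520). Without Ndrg3 LKO replicate 5 both were called lower, at −0.44 and −0.69 (edgeR adjusted p = 0.0436 and 0.00107).

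Of 13 genes of procollagen processing and cross-linking, 6 were tested, of which 5 were higher and 1 lower (median 1.5). Of the 5, *Adamts14*, *Loxl2* and *Loxl4* passed the filter through the Ndrg3 LKO livers, so that neither the count nor the median is independent of the filter. *Pcolce*, which enhances removal of the procollagen end, rose from 3.68 ± 0.74 to 17.1 ± 8.90 CPM (log2 fold change 2.21 ± 0.31 SE, edgeR adjusted p = 0.000203; 1.84 without Ndrg3 LKO replicate 5). *Loxl2*, a cross-linking oxidase, and *Adamts14*, a procollagen protease, rose by 1.91 ± 0.32 and 2.85 ± 0.57 on the log2 scale (SE, edgeR adjusted p = 0.000684 and 0.0018). Ndrg3 LKO replicate 2 held 16.9 CPM of *Adamts14*, the highest of the group, and the log2 fold change without it was 2.08. *Bmp1*, the protease that *Pcolce* enhances, was the 1 that fell (−0.80 ± 0.17 SE, edgeR adjusted p = 0.00271), and is named because of its value. *Lox*, the founding lysyl oxidase, had 0 to 12 counts and was not tested.

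Of 11 matrix proteins that bind collagen, 10 were tested, of which 5 were higher, 1 lower and 4 not called (median 0.45). *Dcn* and *Lum*, small proteoglycans that bind collagen fibres, rose by 0.97 ± 0.17 and 1.29 ± 0.29 on the log2 scale (SE, edgeR adjusted p = 0.000933 and 0.00318), and *Sparc*, a collagen-binding protein of matrix assembly, by 1.37 ± 0.23 (SE, edgeR adjusted p = 0.000576). *Fn1*, fibronectin, which hepatocytes are known to secrete into plasma, fell from 1105 ± 193 to 533 ± 54.8 CPM (log2 fold change −1.05 ± 0.16 SE, edgeR adjusted p = 0.000384).

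Of 10 collagen receptors, 6 were tested, of which 3 were higher, 1 lower and 2 not called (median 0.69). All 3 that were higher were under 1 CPM in at least 1 wild-type liver, and passed the filter through the Ndrg3 LKO livers. The receptor kinases *Ddr1* and *Ddr2*, which are activated by collagen, rose by 1.53 ± 0.27 and 1.18 ± 0.21 on the log2 scale (SE, edgeR adjusted p = 0.000804 and 0.000992), and the integrin chain *Itga10* fell (−1.33 ± 0.30 SE, edgeR adjusted p = 0.00343). *Itga10* reached 1 CPM in 4 wild-type and 2 Ndrg3 LKO livers, so that it passed the filter mostly through the wild-type livers, which fixes its direction in part. Of 10 collagen-degrading enzymes and inhibitors, 4 were tested, of which 3 were higher and 1 not called (median 0.79), *Mmp2* passing the filter through the Ndrg3 LKO livers alone. These were *Mmp2*, a gelatinase (2.32 ± 0.43 SE, edgeR adjusted p = 0.00121), *Mmp14*, which activates it (0.87 ± 0.20 SE, edgeR adjusted p = 0.00346), and the inhibitor *Timp2* (0.71 ± 0.18 SE, edgeR adjusted p = 0.00717). *Timp1*, another inhibitor, had 1 to 19 counts and was not tested.

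**Figure D5:**
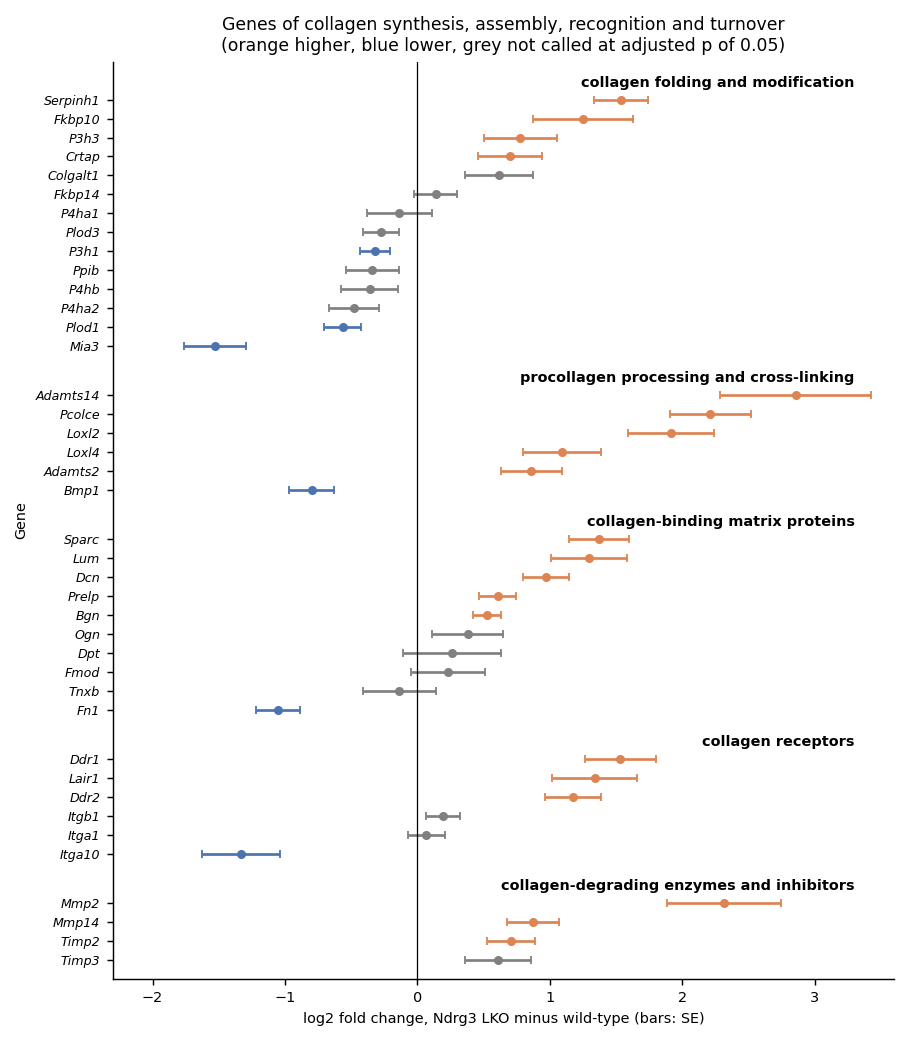
Log2 fold change of Ndrg3 LKO minus wild-type livers (x axis, bars SE, n = 5 per group) for the genes tested in 5 lists of collagen synthesis, processing, binding, sensing and degradation. Orange was called higher, blue lower and grey not called. *Adamts14* (2.85, or 2.08 without Ndrg3 LKO replicate 2), *Mmp2* (2.32) and *Pcolce* (2.21) lie farthest right, and *Mia3* (−1.53) and *Itga10* (−1.33) farthest left.

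Markers of several liver cell types also differed between the groups, and their part in the collagen results was not tested. In whole liver, more or fewer cells of a type and more or less RNA per cell cannot be told apart. Of 7 stellate cell markers, 5 were higher and 2 not called (2 of the 5 passed the filter through the Ndrg3 LKO livers), and their summed level was 55.3 to 96.3 CPM in wild-type and 88.1 to 118 CPM in Ndrg3 LKO livers. Of 4 myofibroblast markers, 1 of 3 tested was higher (*Postn*), with sums of 10.9 to 19.1 and 25.4 to 42.3 CPM, *Cnn1* reaching 0 counts in at least 1 liver. The count of called myofibroblast markers was 2 without wild-type replicate 1 or Ndrg3 LKO replicate 3, and 3 under library-size scaling. It was also 2 under DESeq2, limma, upper-quartile scaling and the replicate block. Of 5 portal fibroblast markers, both that were tested rose (*Eln* and *Fbln2*), and both passed the filter through the Ndrg3 LKO livers, with sums of 1.98 to 3.71 and 5.27 to 9.16 CPM, *Gli1* reaching 0 counts. Among Ndrg3 LKO livers, replicate 5 had the highest sums for myofibroblast and portal fibroblast markers.

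Endothelial markers were higher for 5 of 6 (sums 49.4 to 63.9 and 99.2 to 140 CPM) and macrophage markers for 5 of 5 (sums 50.8 to 130 and 99.6 to 274 CPM). Of 5 cholangiocyte markers, 1 was higher (*Spp1*), 1 lower (*Sox9*) and 3 not called, with 1 called without Ndrg3 LKO replicate 1. Their sums, 38.5 to 71.7 and 50.9 to 220 CPM, were mostly *Spp1* (34.0 to 56.45 and 44.3 to 205 CPM). Of 4 mesothelial markers, 0 of 3 tested were called by edgeR, with 0 at an unadjusted p under 0.05 and 0 called by DESeq2 or limma, but 1 without wild-type replicate 3 (sums 1.43 to 9.26 and 3.97 to 6.51 CPM, *Wt1* reaching 0 counts). Hepatocyte markers were lower for 5 of 6 and higher for 1, *Apoc3*, with sums of 120300 to 161300 CPM in wild-type and 29270 to 142700 CPM in Ndrg3 LKO livers. Leaving out each liver in turn gave 3 to 5 of the 6 called, with 3 without wild-type replicate 5 or Ndrg3 LKO replicate 4. With all livers, 1 of the 6 was called at an adjusted p under 0.01. Ndrg3 LKO replicate 5 had 142700 CPM, within the wild-type range, where the other 4 had 29270 to 40070 CPM. Most of its sum was *Alb*, at 108000 CPM. In that liver *Alb*, *Ttr* and *Tat* were within the wild-type range. *Hnf4a* (362 CPM, against 590 to 794) and *Apoa1* (14020, against 16790 to 24990) were below it, and *Apoc3* (5501, against 1801 to 3214) was above it. In replicate 5 *Col27a1*, *Col5a3* and *Col18a1* were below every wild-type liver, and *Col3a1*, *Col1a2*, *Col4a2*, *Col5a2*, *Col6a2* and *Col6a3* above every wild-type liver. These are the tested collagen genes whose groups did not overlap, so the same holds for each Ndrg3 LKO liver by choice of gene. A link to the hepatocyte markers was not tested.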

How the data were processed

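Libraries were prepared from mRNA of 10 livers with an Illumina stranded mRNA kit and sequenced as paired ends. Reads were mapped to mm9 with STAR and counted per gene by its count module. The submitters' processing notes name Trim Galore 0.6.4, STAR 2.7.3a and Cufflinks 2.2.1, and the annotation and the strand setting of the counting are not given in the sources used here. The values the authors deposited are raw counts per gene symbol, although the files are named as CPM: all are whole numbers, and their totals differ between livers.

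Collagen genes and lists were chosen with earlier results of these data known. Genes were located in GENCODE M1 (mm9), where *Col26a1* stands under a synonym. A gene was tested where 5 or more livers reached 1 CPM by unadjusted library totals (4 or more where 1 liver was left out). With R 4.3.3 and edgeR 4.0.16, TMM scaling and the quasi-likelihood test gave log2 fold changes for 11208 genes with Benjamini-Hochberg adjustment over all of them, at 0.05. SE was the size of that value over the root of its F statistic. P-values measure the spread between these livers. Ratios of collagen counts (plus 0.5) were compared by 2-sided exact permutation over all splits of 5 against 5, adjusted over 6 ratios. All tested collagen genes are named, with values per liver for those of at least 10 CPM in the higher group or without overlap, and from each pathway list the 3 lowest p and, whether or not among these, the 8 genes *Serpinh1*, *P4ha1*, *P4ha2*, *Lox*, *Dcn*, *Lum*, *Mmp2* and *Timp1*. Fits were tested on simulated data. DESeq2 1.42.0, limma 3.58.1 on log2(CPM + 1), other scalings and filters, the replicate block and each liver left out were alternatives. Counts of 3 were taken as the floor of a library, covering counting error only, since reads are not independent molecules.

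Deviations from group means of same-numbered livers correlated at −0.36, −0.27, −0.31, −0.18 and 0.04 for replicates 1 to 5, so that the numbers did not pair the livers.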

Additional observations from a re-analysis of the deposited data

Results flagged for a closer look

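In 40 groups of 5 livers (20 collagen genes in 2 groups), 4 livers lay far from the others of their group, where chance flags about 1 group in 20. The gap to the nearest liver, divided by the range of the group, passed the critical value of 0.71 for *Col4a1* in Ndrg3 LKO replicate 5 (33.4 CPM, gap 0.814 of the range) and in wild-type replicate 4 (8.01 CPM, 0.724). It also passed for *Col20a1* in Ndrg3 LKO replicate 2 (1.75 CPM, 0.791) and for *Col5a2* in wild-type replicate 1 (1.46 CPM, 0.725). Ndrg3 LKO replicate 5 (*Col4a1*) and wild-type replicate 1 (*Col5a2*) were the highest of their groups, and the other pair were the lowest.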

How the results depend on the processing

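Over 17 alternative fits, 13 of the 15 collagen genes called kept their direction and call in each fit that tested them, the exceptions being *Col12a1* and *Col20a1*. Across these fits and the threshold of 0.01, 324 of 350 fold changes of single genes kept direction and side of the threshold, 8 lost the call, 18 gained it and 0 changed sign. A mean CPM of at least 5 left 10 collagen genes and 9 calls (6 higher), and 2 calls among processing genes and 0 among receptors (edgeR; 2 receptors tested, 0 with an unadjusted p under 0.05, 0 called by DESeq2). The median log2 fold change of collagen genes was 1.62 under library-size scaling, 0.70 without a filter, which adds low genes, and 0.82 under limma, whose pseudocount shrinks low genes. Without a filter, 6 of the degradation list were called, against 3. At an adjusted p under 0.01, 3 folding genes were called, against 7.

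Leaving out each liver gave 14 to 18 collagen genes called and 4 to 9 folding genes, the fewest without Ndrg3 LKO replicate 1. The log2 ratio of *Col3a1* to *Col1a1* differed by −0.034 to 0.38, turning sign without wild-type replicate 1 (−0.034), *Col5a1* to *Col5a2* by −0.73 to −0.48, *Col4a1* to *Col4a2* by −0.92 to −0.49, *Col6a1* to *Col6a2* by −0.60 to −0.35 and *Col15a1* to *Col18a1* by 2.28 to 2.78. Adjusted exact permutation p fell to 0.0476 for *Col5a1* to *Col5a2* without a pseudocount (difference −0.65), without wild-type replicate 3 and without Ndrg3 LKO replicate 1, and for *Col4a1* to *Col4a2* without wild-type replicate 4, and to 0.0238 for *Col6a1* to *Col6a2* without Ndrg3 LKO replicate 1. The cause was not tested.

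With the replicate number as a block, 14 collagen genes were called, 11 higher and 3 lower, *Col12a1* losing its call (adjusted p = 0.0877) and no other tested collagen gene changing its call. A block over the 5 numbers gave the same differences of ratios, and paired exact permutation cannot reach 0.05 there. Of the 24 collagen genes under the filter, 19 rest on at most 13 counts in any liver.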
